A study of Mus musculus with 32 samples.

Results

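Immediate early and stress-induced genes are measured here in mouse liver through 4 genes: Gadd45g, Myc, Hspa1a and Fosb. They were chosen by name for their known roles, and are 4 of the 533 distinct genes in the deposited tables of a study of sodium oxybate (SXB). SXB is the sodium salt of gamma-hydroxybutyrate, a drug for narcolepsy, and the study concerns its action on obesity. RNA from the livers of C57BL/6J mice was sequenced in 2 experiments, named T and P after the letters in the library names. T is labelled experiment 1 and P experiment 2. Each experiment has 8 SXB libraries (T_SXB, P_SXB) and 8 vehicle libraries (T_Vehicle, P_Vehicle), 32 in all. The labels give all 4 groups the same strain and tissue. They give no age, diet, dose or duration, and do not say which experiment used developing and which established obesity. Whether the 8 libraries of a group are 8 mice is also not stated, so the p-values reflect variation among libraries, which may be technical. Gadd45g, Myc and Hspa1a are listed for T and Fosb for P. No member is listed for both, so none could be compared between the experiments.

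Immediate early genes are transcribed within minutes of a stimulus by transcription factors that the cell already holds. Fosb and Myc belong to this class. Fosb encodes a partner of JUN proteins in the AP-1 factor, and Myc encodes a factor that pairs with MAX on E-box sequences to drive growth and ribosome production. In rodent liver, Myc and members of the Fos and Jun families are known for a rapid rise when hepatocytes are primed to divide after part of the organ is removed. Gadd45g encodes a small protein that binds stress kinase regulators and cell cycle proteins and is induced by stress and by cytokines. Hspa1a encodes an inducible chaperone of the HSP70 family, switched on by heat shock factor when proteins unfold.

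On GRCm38 with the GENCODE M21 annotation, Gadd45g (ENSMUSG00000021453) lies at chr13:51846678-51848468 on the plus strand, with up to 4 exons. Myc (ENSMUSG00000022346) lies at chr15:61985391-61990374 on the plus strand, with up to 3 exons. Hspa1a (ENSMUSG00000091971) is a gene of 1 exon at chr17:34969190-34972156 on the minus strand. Fosb (ENSMUSG00000003545) lies at chr7:19302696-19310051 on the minus strand, with up to 5 exons. Promoter sequences are shown for the 3 of the 4 members that have an entry in the promoter set used, which holds none for Myc. They are the 250 bases before the start site, from RefSeq on GRCm38.p6, written 5′ to 3′ on the gene's strand. They cover chr13:51846425-51846674 for Gadd45g, chr17:34972157-34972406 for Hspa1a and chr7:19310046-19310295 for Fosb. Capitals mark the motifs described after them.
Gadd45g: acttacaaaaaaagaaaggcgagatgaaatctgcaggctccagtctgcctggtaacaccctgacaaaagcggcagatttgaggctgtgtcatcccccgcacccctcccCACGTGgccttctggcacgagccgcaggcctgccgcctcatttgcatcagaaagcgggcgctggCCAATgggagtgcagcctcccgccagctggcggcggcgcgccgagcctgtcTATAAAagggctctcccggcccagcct
Hspa1a: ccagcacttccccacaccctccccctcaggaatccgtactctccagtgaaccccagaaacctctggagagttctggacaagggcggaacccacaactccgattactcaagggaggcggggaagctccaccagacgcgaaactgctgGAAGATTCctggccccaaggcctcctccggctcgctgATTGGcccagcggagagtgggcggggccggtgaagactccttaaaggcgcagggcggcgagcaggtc
Fosb: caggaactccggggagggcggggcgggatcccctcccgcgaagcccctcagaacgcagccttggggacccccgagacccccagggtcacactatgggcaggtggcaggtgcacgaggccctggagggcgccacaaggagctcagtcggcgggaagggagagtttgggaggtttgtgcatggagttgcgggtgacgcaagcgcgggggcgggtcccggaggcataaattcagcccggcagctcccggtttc

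Both strands were searched for 8 motifs. Gadd45g holds the E-box CACGTG, bound by MYC and other factors, at -142 to -137 from its start site. It also holds a CCAAT box (CCAAT) at -78 to -74 and a TATA box (TATAAA) at -27 to -22. Hspa1a holds the core of a heat shock element (GAANNTTC) at -104 to -97 and a CCAAT box, on the other strand and so printed as ATTGG, at -67 to -63. Among 32851 promoters of this length, 6.02% hold CACGTG, 6.69% GAANNTTC, 33.8% CCAAT and 12.4% TATAAA. The other 4 motifs were the CArG box (1.47% of promoters), the cyclic AMP response element TGACGTCA (1.55%), the AP-1 site TGANTCA (6.75%) and the STAT site TTCNNNGAA (7.02%). The Fosb window holds no match to the letters of any of the 8 motifs. None of the marked motifs overlap each other, and a match is a description of the letters. Hspa1a has a near copy, Hspa1b, on the same strand at chr17:34956436-34959238, and their promoters differ at 3 of 250 bases. Of the 2818 stretches of 150 bases, the read length, in the Hspa1a transcript, 1119 (39.7%) also occur in Hspa1b or its relative Hspa1l. Hspa1a also overlaps Gm20481 on the opposite strand, and it is not stated whether counting used strand. How reads were divided among these genes is therefore uncertain. No such stretch of Myc, Gadd45g or Fosb occurs in another gene.

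The values are the authors' normalised expression values. Their unit is not named as TPM or FPKM and sequencing depth is unknown, so levels are compared only within a gene. The tables hold 306 genes for T and 242 for P, selected by the authors on these libraries for a log2 fold change beyond 1 and an unadjusted p below 0.05. The members met that selection, and the tests below are therefore not independent evidence of an effect. A gene that is not listed was not selected, and its values are not known here. Library 16, labelled vehicle, stands among the columns of the SXB libraries, and library 18, labelled SXB, stands among those of the vehicle libraries. Over the genes of T, the median gap between the fold of means by label and the authors' deposited fold was 0.43 on the log2 scale with all libraries, and 10 of 303 genes had the opposite sign. Without libraries 16 and 18 the gap was 0.26, and 3 of 298 genes had the opposite sign. Whether the labels or the column order of these libraries are in error was not tested, and every value from all 16 libraries of T depends on the labels being right. Results for T are given by label with all 16 libraries and again with the 14 libraries that leave out both. Libraries 1 to 4 of T stand apart in the mitochondrial gene mt-Atp6, with 486.43 to 6421.52 there and at most 44.84 in the other 12 libraries. Of these, 1, 2 and 3 are SXB libraries and 4 is a vehicle library. None of the 14 hepatocyte markers looked for is listed in either table. The tissue label was checked only for T, through Hamp, the hepatocyte hormone hepcidin, which had 3438.6 to 32559.8 in its libraries. In bulk liver, fewer cells of a type and less RNA per cell cannot be told apart.

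Gadd45g had a higher mean with SXB in T, but SXB libraries 12 and 18 and vehicle library 16 lay on the side of the other group. Its values ran between 4.86 and 113.38 with a median of 76.9 in SXB livers, against 5.76 to 82.01 with a median of 20.3 in vehicle livers. SXB libraries 1, 3, 7, 9 and 13 were high, between 74.71 and 113.38, SXB library 2 was intermediate at 34.4, and SXB libraries 12 and 18 were low at 8.19 and 4.86. In vehicle livers, 7 libraries lay at or below 36.82 and library 16 had 82.01, so the groups overlapped. The means were 63.7 ± 43.0 in SXB livers and 27.7 ± 23.7 in vehicle livers (SD, n = 8 each), a 2.30-fold ratio. Differences were fitted as log2(value + 1), where the added 1 shrinks the differences of low genes. The difference of SXB minus vehicle was 0.94 (SE 0.67, 95% interval -0.49 to 2.37). It did not pass the threshold of 0.05 (limma adjusted p = 0.286 over the 306 genes; exact two-sided permutation test over libraries, p = 0.191).

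None of the 3 members of T passed with all 16 libraries, and limma called 0 of 306 genes (0.0%) in that comparison. At an unadjusted limma p below 0.05 there were 90 genes (29.4%), and none of the 3 members was among them. An exact permutation test and an exact rank-sum test over libraries, adjusted over the same genes, also called 0. All 3 members had a positive difference, as did 148 of the 306 genes (48.4%).

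Without libraries 16 and 18 the separation of Gadd45g was wider. It averaged 72.1 ± 38.7 in 7 SXB livers and 19.9 ± 9.57 in 7 vehicle livers (SD), a 3.62-fold ratio. The highest vehicle value was then 36.82, and 5 of 7 SXB libraries lay above it. SXB libraries 2 and 12 fell within the vehicle range. The log2 difference was 1.62 (SE 0.55, 95% interval 0.44 to 2.80), just short of the threshold (limma adjusted p = 0.0518; exact permutation test p = 0.0169, adjusted p = 0.0549 over the 306 genes). Limma called 56 of 306 genes (18.3%) in these 14 libraries, 19 of them higher with SXB (6.21%), and no member was among them. At an unadjusted limma p below 0.05 these libraries gave 147 genes (48.0%), Gadd45g and Myc among them. In the authors' deposited table, the fold of Gadd45g was 3.69 with an adjusted p of 0.0225, at place 30 of 306 by p. The authors' table calls 43 of 306 genes (14.1%) by that adjusted p, and Gadd45g is the one member of T among them.

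Gadd45g passed limma when SXB library 12 was also left out (log2 difference 2.06, SE 0.37, adjusted p = 0.0148). Without that library the means were 82.8 ± 29.1 in 6 SXB livers and 19.9 ± 9.57 in 7 vehicle livers, a 4.16-fold ratio. It also passed without vehicle library 14 in place of 12, at 1.79 (adjusted p = 0.0411). These are the lowest SXB library (8.19) and the highest vehicle library (36.82) of the 14. With any other 1 of the 14 left out, Gadd45g did not pass (limma adjusted p between 0.0623 and 0.0925). Without libraries 1 to 4 but with 16 and 18, the difference was 0.53 (95% interval -1.37 to 2.43, adjusted p = 0.746). Without all 6 of these libraries it was 1.46 (adjusted p = 0.202), and the means were 70.6 ± 44.1 in 4 SXB livers and 20.1 ± 10.5 in 6 vehicle livers. With membership of libraries 1 to 4 as a covariate it was 0.78 with all 16 libraries and 1.54 with 14 (adjusted p = 0.412 and 0.0756).

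**Figure D1:**
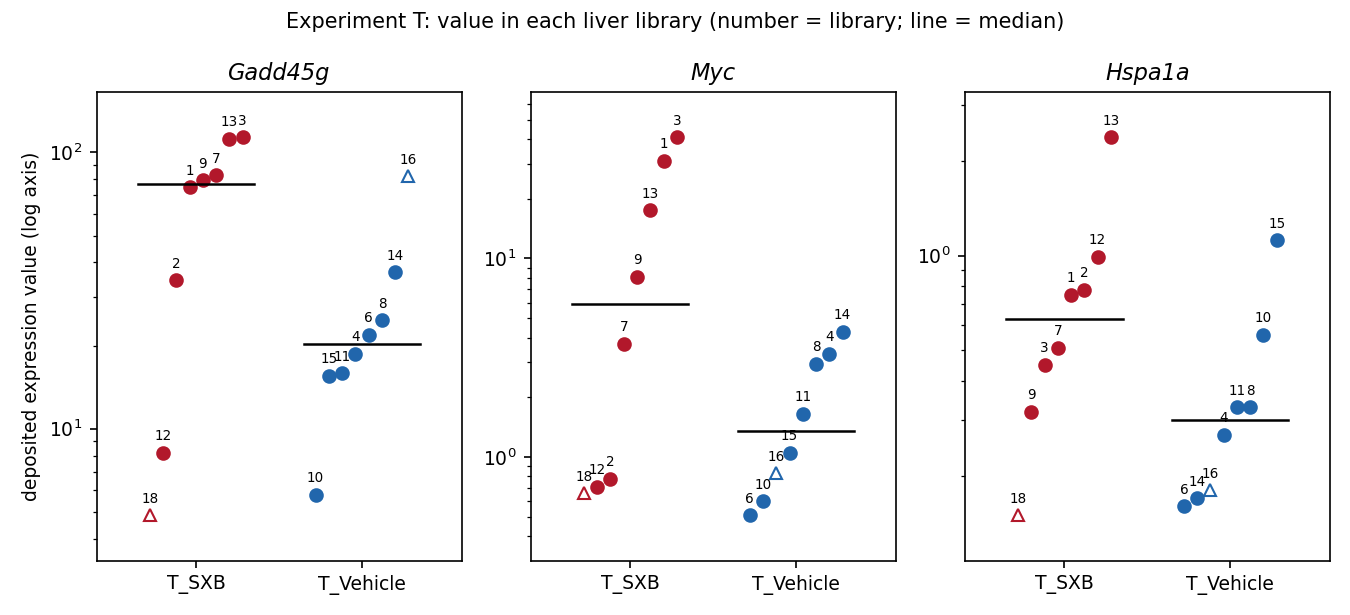
Deposited expression value (log axis) of Gadd45g, Myc and Hspa1a in each of the 16 libraries of T, with T_SXB in red on the left and T_Vehicle in blue on the right of each panel. Points carry the library number, open triangles are libraries 16 and 18, and lines are group medians. Gadd45g of vehicle library 16 lies at 82.01 among the high SXB libraries and that of SXB library 18 lies at 4.86, the lowest of all.

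Myc varied widely among the SXB livers of T. Its values ran between 0.66 and 40.66 with a median of 5.91 in SXB livers, a 61.6-fold range. In vehicle livers they ran between 0.51 and 4.27 with a median of 1.35, an 8.37-fold range. SXB libraries 3, 1, 13 and 9 were high, at 40.66, 31.02, 17.51 and 8.08, and lay above every vehicle library. SXB library 7, at 3.73, was within the vehicle range, and SXB libraries 2, 12 and 18 were below the vehicle median, at 0.78, 0.71 and 0.66. The groups therefore overlapped, with 4 of 8 SXB libraries above the vehicle maximum and 3 of 8 below the vehicle median.

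The mean of Myc was 12.9 ± 15.5 in SXB livers and 1.90 ± 1.43 in vehicle livers (SD, n = 8 each), a 6.80-fold ratio. Among the 306 genes of T its log2 difference, 1.41 (SE 0.70, 95% interval -0.09 to 2.91), ranked 6 by size. It did not pass (limma adjusted p = 0.191; exact permutation test p = 0.0766; exact rank-sum test p = 0.195). Without libraries 16 and 18 the means were 14.6 ± 15.8 in SXB livers and 2.05 ± 1.47 in vehicle livers (n = 7 each). The log2 difference was then 1.63 (SE 0.73, limma adjusted p = 0.0969; exact permutation test p = 0.0589). In the authors' deposited table Myc had a fold of 5.59 with an adjusted p of 0.0940.

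The ratio of means of Myc rested on a few libraries. Leaving out SXB library 3 gave a 4.70-fold ratio, and leaving out vehicle library 14 gave 8.27-fold. The 2 highest SXB libraries, 3 and 1, are among the libraries with high mt-Atp6. Without libraries 1 to 4, Myc averaged 6.14 ± 7.04 in 5 SXB livers and 1.70 ± 1.41 in 7 vehicle livers, a 3.62-fold ratio. The log2 difference was then 0.95 (95% interval -0.40 to 2.30, limma adjusted p = 0.558), and 1.25 when libraries 16 and 18 were left out as well (adjusted p = 0.207). With membership of libraries 1 to 4 as a covariate it was 1.09 with all 16 libraries and 1.34 with 14 (adjusted p = 0.291 and 0.164). None of the 29 MYC partners and textbook MYC targets looked for, among them Max, Odc1, Ncl and Cdk4, is listed in the table of T or in that of P. Their absence shows only that the authors did not select them, and smaller differences could not be tested.

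Hspa1a had small values in T, and single libraries stood out in both groups. Its values ran between 0.15 and 2.37 with a median of 0.63 in SXB livers, against 0.16 to 1.12 with a median of 0.30 in vehicle livers. SXB library 13 stood alone at 2.37, the other 7 SXB libraries lay at or below 0.99, and vehicle library 15 stood apart at 1.12, so the groups overlapped. In SXB livers 7 of 8 libraries lay above the vehicle median. The means were 0.790 ± 0.693 in SXB livers and 0.390 ± 0.323 in vehicle livers (SD, n = 8 each), a 2.03-fold ratio. The log2 difference was 0.32 (SE 0.19, 95% interval -0.09 to 0.72) and did not pass (limma adjusted p = 0.239; exact permutation test p = 0.124). Without libraries 16 and 18 it was 0.37 (95% interval -0.06 to 0.79, limma adjusted p = 0.132).

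Single libraries moved the ratio of Hspa1a. Without SXB library 13 it was 1.45-fold, with a mean of 0.564 ± 0.291 in 7 SXB livers. Without vehicle library 15 it was 2.77-fold. In the authors' deposited table the fold was 2.18 with an adjusted p of 0.431. Of the 26 heat shock and chaperone genes looked for, among them Hspa1b, Hspa8, Dnajb1 and Hsph1, Hspa1a is the one listed for T and none is listed for P. The others missed the authors' selection, and whether they differed by less could not be tested.

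Gadd45g and Myc varied together in deviations from the group mean pooled over both groups, and no correlation of Hspa1a with either passed. The relation in each group alone was not tested. After the group mean was subtracted on the log2(value + 1) scale, Pearson's r between Myc and Gadd45g was 0.68 over 16 libraries (permutation p = 0.0124, adjusted p = 0.0371 over the 3 pairs tested). Spearman's rho was 0.63 (permutation p = 0.0199, adjusted p = 0.0597). Without libraries 1 and 3, the 2 farthest from the median of the deviations of Myc, r was 0.66. Between Myc and Hspa1a r was 0.13 (permutation p = 0.743, adjusted p = 0.824) and rho 0.04 (permutation p = 0.894, adjusted p = 0.894), and between Gadd45g and Hspa1a r was 0.07 (permutation p = 0.824, adjusted p = 0.824) and rho -0.23 (permutation p = 0.428, adjusted p = 0.642).

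The relation of Myc and Gadd45g had r = 0.75 and rho = 0.70 over the 14 libraries without 16 and 18 (permutation, adjusted p = 0.00429 and 0.0275). There r was 0.58 once libraries 2 and 12 were left out, the farthest from the median of the deviations of Myc. SXB libraries 3 and 1, the highest in Myc value, were kept in that check. Over the 12 libraries without 1 to 4, r was 0.74 (permutation p = 0.0413, adjusted p = 0.124) and rho was 0.66 (adjusted p = 0.181), short of the threshold after adjustment. Libraries 1 to 4 alone are too few for a value. SXB libraries 12 and 18 were low and SXB libraries 1, 3, 13 and 9 high in both genes. Among the libraries that did not follow this were SXB library 2, with 34.4 for Gadd45g and 0.78 for Myc, SXB library 7, with 82.65 for Gadd45g and 3.73 for Myc, and vehicle library 16, with 82.01 for Gadd45g and 0.83 for Myc.

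**Figure D2:**
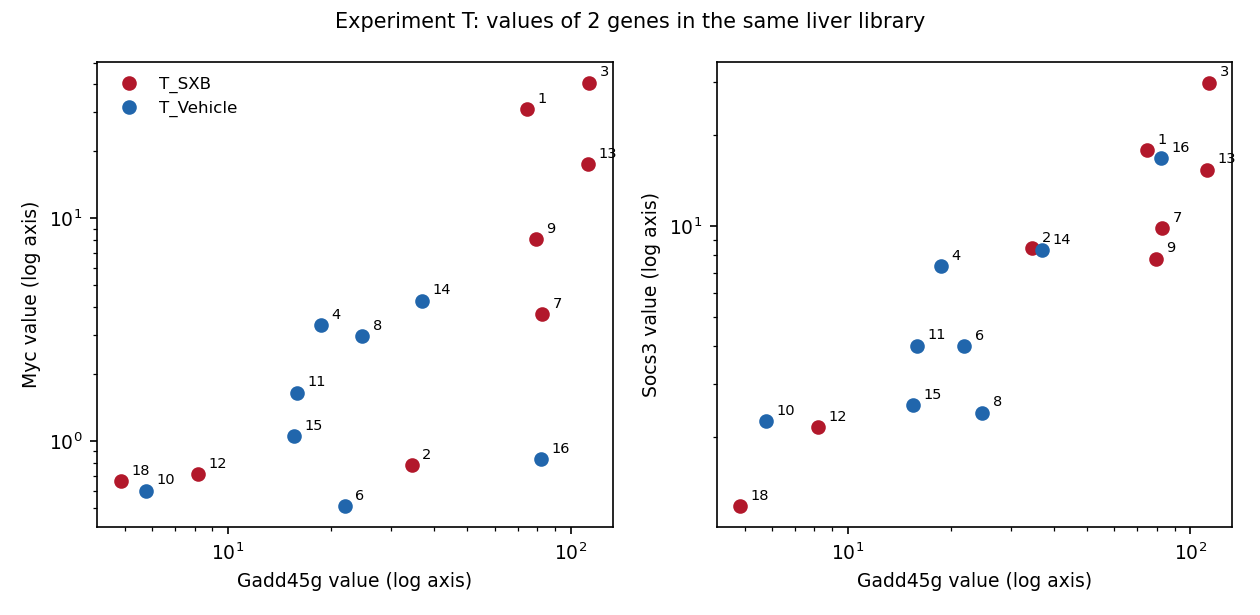
Deposited value of Myc (left) and of Socs3 (right) against that of Gadd45g in the same library, all on log axes, with T_SXB in red and T_Vehicle in blue and the library number beside each point. SXB libraries 1, 3 and 13 are high in all 3 genes, and vehicle library 16 is high in Gadd45g (82.01) and Socs3 (16.78) but not in Myc (0.83).

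The genes whose pattern among libraries was most like these were sought among genes with a mean of at least 1, by Spearman's rho of deviations from the group mean over 16 libraries. For Myc, with 85 genes compared, these were Foxq1 (0.84), Phlda1 (0.84), Socs3 (0.71) and Gadd45g (0.63). For Gadd45g they were Socs3 (0.85), Foxq1 (0.82), Gm48199 (0.70) and Myc (0.63). Foxq1 encodes a forkhead transcription factor, Phlda1 a protein with a pleckstrin homology-like domain, and Socs3 the inhibitor of cytokine signalling that STAT3 induces as feedback. In the 14 libraries without 16 and 18, the same 4 genes were most like Myc (0.70 to 0.84). For Gadd45g they were then Foxq1 (0.87), Gm9830 (0.71), Myc (0.70) and Socs3 (0.66), so the first place of Socs3 and the place of Gm48199 rested on those 2 libraries. Vehicle library 16 had 6.71 of Gm48199, while the 7 other vehicle livers had at most 0.81. These rho values are the highest of those compared, and describe libraries that share their RNA extraction and depth with every gene.

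Foxq1 averaged 12.9 ± 10.7 in SXB livers and 3.42 ± 3.43 in vehicle livers (SD, n = 8 each). Its log2 difference was 1.41 (limma adjusted p = 0.167), and 1.78 without libraries 16 and 18 (adjusted p = 0.0518). Phlda1 averaged 110.2 ± 102.9 in SXB livers and 31.5 ± 23.5 in vehicle livers (n = 8 each). Its log2 difference was 1.40 (adjusted p = 0.170), and 1.64 without libraries 16 and 18 (adjusted p = 0.0785). SXB libraries 3 and 1 had the highest values of both genes, as of Myc, with 30.05 and 23.22 for Foxq1 and 284.31 and 250.61 for Phlda1. SXB libraries 12 and 18 were again low, with 1.29 and 1.04 for Foxq1 and 12.12 and 13.1 for Phlda1.

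For Hspa1a, with 86 genes compared, the most alike were Asns (0.53), Moxd1 (0.52), Eif4ebp3 (0.51) and Tff3 (0.51), lower rho values than those of Myc and Gadd45g. Pearson's r of the same deviations was 0.38, 0.45, 0.49 and 0.32. As the highest of 86, such rho values can arise by chance, and this was not tested. In the 14 libraries Eif4ebp3 came first (0.63), followed by E030018B13Rik (0.53), Saa2 (0.51) and Capn8 (0.51). Asns encodes asparagine synthetase and Eif4ebp3 an inhibitor of translation initiation. Eif4ebp3 rose in the 14 libraries, to 113.2 ± 37.0 in SXB livers, against 34.05 ± 18.2 in vehicle livers (SD, n = 7 each; log2 difference 1.79, SE 0.34, limma adjusted p = 0.0203). With all 16 libraries it was short of the threshold at 1.16 (adjusted p = 0.167).

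Other immediate early genes were mostly not listed for T. Of 47 looked for, 2 are in its table, Myc and Socs3, and neither passed with 16 or with 14 libraries. Both had a positive log2 difference, as did 148 of the 306 genes (48.4%). The median of the 2, 1.04, comes after selection for a log2 fold change beyond 1 and is not a separate result. Socs3 averaged 11.6 ± 9.35 in SXB livers and 5.97 ± 4.93 in vehicle livers (SD, n = 8 each; log2 difference 0.68, limma adjusted p = 0.318). In the 14 libraries it averaged 13.1 ± 9.03 in SXB livers and 4.42 ± 2.47 in vehicle livers (n = 7 each; 1.21, SE 0.44, adjusted p = 0.0605). In the authors' deposited table the fold of Socs3 was 3.08 with an adjusted p of 0.00801, from the authors' own test. The ratio of means by label was 1.94 with 16 libraries and 2.95 with 14. In which groups the authors counted libraries 16 and 18 is not known. Of 24 growth arrest and DNA damage genes, among them Gadd45a, Gadd45b, Cdkn1a and Ddit3, Gadd45g is the one listed for T.

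Of 32 acute phase and STAT3 target genes, 6 are listed for T, and all 6 had a positive log2 difference with a median of 0.65. Over the whole table, 148 of 306 genes (48.4%) were positive. None of the 6 passed with 16 libraries. Without libraries 16 and 18 their median was 1.18, and Hamp was among the 19 of 306 genes (6.21%) called higher. Hamp rose to 19615 ± 4357 in SXB livers, against 9239 ± 3751 in vehicle livers (SD, n = 7 each; log2 difference 1.18, SE 0.27, limma adjusted p = 0.0263). Without SXB library 2 as well, Hamp did not pass (1.14, adjusted p = 0.0565). The serum amyloid genes Saa1, Saa2 and Saa4, the interleukin 1 receptor Il1r1 and Socs3 had differences of 1.43, 1.18, 0.94, 0.66 and 1.21 in the 14 libraries and did not pass. Vehicle library 16, high in Gadd45g and Socs3, also had the highest Hamp of the 16 libraries, at 32559.8.

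Marker genes of other cells were few in the table of T. The macrophage list had 3 of 24 genes in the table (Mmp12, Itgax, Ccl2), with a summed value of 0.59 to 5.07 in SXB livers and 0.72 to 12.39 in vehicle livers. The B, plasma and T cell list had 3 of 16, with sums of 0.50 to 2.58 in SXB livers and 0.49 to 9.93 in vehicle livers. The adipose list had 2 of 8 (Cfd, Cidec), with sums of 1.42 to 20.12 in SXB livers and 3.73 to 88.12 in vehicle livers. The list of mesothelial, bile duct, endothelial and stellate cell genes had 2 of 17, with sums of 0.00 to 0.42 in SXB livers and 0.14 to 0.76 in vehicle livers. No neutrophil gene is listed. All 10 listed marker genes had negative differences, the opposite sign to Gadd45g, Myc and Hspa1a. Over the whole table, 148 of 306 genes (48.4%) had a positive difference. None of the 10 passed with 16 libraries. Once libraries 16 and 18 were left out, limma called 37 of 306 genes lower (12.1%), and 3 of the 10 were among them. These were Cfd of the adipose list (-2.36, limma adjusted p = 0.0339), H2-Ob (-1.13, adjusted p = 0.0406) and Cd79b (-0.31, adjusted p = 0.0495). Leaving out 1 more library ended these calls in 4, 9 and 13 of 14 cases. Which cells the RNA of the listed marker genes came from was not tested. The part of such cells in the values of Gadd45g, Myc and Hspa1a was not tested either.

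Fosb, the member listed for P, had a lower median with SXB, and its mean rested on 1 library in each group. Its values ran between 0.01 and 1.23 with a median of 0.055 in SXB livers, against 0.04 to 2.19 with a median of 0.16 in vehicle livers. SXB library 30 had 1.23, while the other 7 SXB libraries lay at or below 0.16. Vehicle library 31 had 2.19 and vehicle library 35 had 0.73, while the other 6 vehicle libraries lay between 0.04 and 0.23. The groups overlapped, with 6 of 8 SXB libraries below the vehicle median and 2 of 8 below the vehicle minimum. Values this low, deposited to 0.01, limit the precision of each ratio.

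The mean of Fosb was 0.210 ± 0.415 in SXB livers and 0.469 ± 0.728 in vehicle livers (SD, n = 8 each), 2.23-fold lower with SXB. The log2 difference was -0.22 (SE 0.23, 95% interval -0.71 to 0.26) and did not pass (limma adjusted p = 0.352 over the 242 genes; exact permutation test p = 0.374; exact rank-sum test p = 0.0692, adjusted p = 0.0990). Limma called 94 of 242 genes (38.8%) in this comparison, 84 of them lower with SXB (34.7%), and Fosb was not among them. In the authors' deposited table Fosb was 6.86-fold lower with SXB, at an adjusted p of 0.00817 and place 31 of 242 by p. That table calls 50 of 242 genes (20.7%) by its adjusted p.

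The size of the Fosb ratio rested on single libraries. Without SXB library 30 the mean was 0.0643 ± 0.0506 in 7 SXB livers, 7.29-fold lower than in the 8 vehicle livers (log2 difference -0.36, limma adjusted p = 0.131). Without vehicle library 31 the mean of the 7 other vehicle livers was 0.223 ± 0.231, and SXB was 1.06-fold lower (log2 difference -0.05, 95% interval -0.40 to 0.30, adjusted p = 0.769). Vehicle libraries 33, 34 and 35 stand apart from the other vehicle libraries of P by the acute phase gene Orm2. They had 539.57, 896.83 and 140.09, against 8.03 to 10.41 in the other 5 vehicle libraries. SXB libraries 25, 28 and 19 also had raised Orm2, at 163.43, 85.07 and 57.91, against 4.78 to 11.65 in the rest of the SXB livers. Results without libraries 33, 34 and 35 change the vehicle group only, and keep these SXB libraries. Without vehicle libraries 33, 34 and 35 Fosb was 2.58-fold lower with SXB (log2 difference -0.25, limma adjusted p = 0.456).

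**Figure D3:**
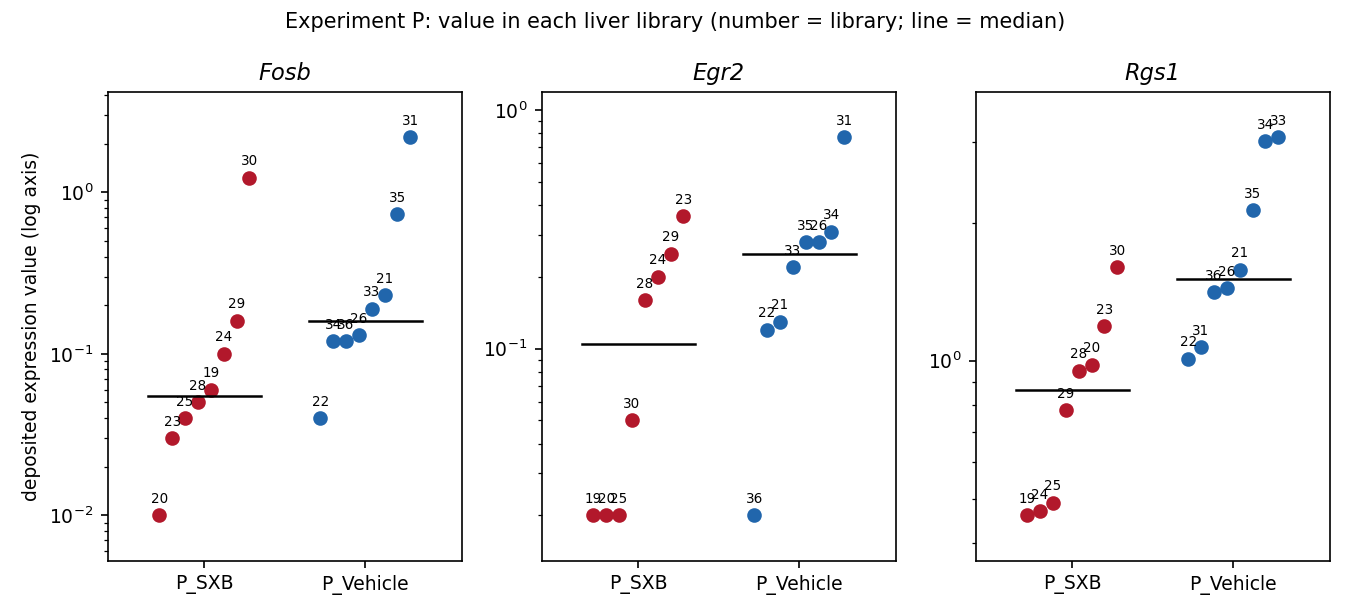
Deposited expression value (log axis) of Fosb, Egr2 and Rgs1 in each of the 16 libraries of P, with P_SXB in red on the left and P_Vehicle in blue on the right of each panel. Points carry the library number and lines are group medians. For Fosb, SXB library 30 (1.23) and vehicle library 31 (2.19) lie far above the rest of their groups.

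Of the 47 immediate early genes looked for, 3 are listed for P: Fosb, Egr2 and Rgs1. All 3 had negative log2 differences with a median of -0.22, against -0.17 over the 242 genes, of which 41 had a positive difference (16.9%). Egr2, a zinc finger transcription factor of this class, had 0.02 to 0.36 with a median of 0.105 in SXB livers and 0.02 to 0.77 with a median of 0.25 in vehicle livers. Its difference of -0.15 did not pass (limma adjusted p = 0.173). Vehicle library 31 had the highest value of Egr2 as of Fosb, while SXB library 30 had 0.05 for Egr2.

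Of these 3 immediate early genes 1 passed, against 84 of 242 genes called lower in P (34.7%). It was Rgs1, a regulator of G protein signalling best known from lymphocytes and other immune cells. It had 0.46 to 1.6 with a median of 0.865 in SXB livers and 1.01 to 3.07 with a median of 1.51 in vehicle livers, and the groups overlapped. Rgs1 fell to a mean of 0.865 ± 0.403 in SXB livers, against 1.84 ± 0.816 in vehicle livers (SD, n = 8 each; log2 difference -0.59, SE 0.17, limma adjusted p = 0.0192). The 3 highest values were those of vehicle libraries 33, 34 and 35, and without them Rgs1 did not pass (-0.33, adjusted p = 0.111).

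Macrophage genes fell in P beside these. Of 24 in the list, 11 are in the table, all with negative differences, and 9 passed as lower. Over all 242 genes, 84 passed as lower (34.7%) and 41 had a positive difference (16.9%). The summed value of the 11 was 42.92 to 64.10 in SXB livers and 65.81 to 161.18 in vehicle livers. Gene by gene, the groups overlapped in all but Marco. C1qb, which has the largest values, had 21.88 to 32.87 in SXB livers and 32.77 to 76.32 in vehicle livers. Of 16 B, plasma and T cell genes 4 are listed and 3 passed, all lower, with sums of 6.41 to 21.45 in SXB livers and 16.27 to 105.19 in vehicle livers. Without vehicle libraries 33, 34 and 35, 8 of the 11 macrophage genes and 1 of the 4 B, plasma and T cell genes passed as lower. Limma called 54 of 242 genes (22.3%) there, 50 of them lower (20.7%). The part of these cells in the values of Fosb, Egr2 and Rgs1 was not tested.

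The remaining cell lists in P held few genes. Of 10 neutrophil genes 2 are listed and of 8 adipose genes 1, and none passed. Of 17 mesothelial, bile duct, endothelial and stellate cell genes 4 are listed, with sums of 0.28 to 0.81 in SXB livers and 0.05 to 0.49 in vehicle livers, and 2 passed as higher, Upk3b and Gpm6a, against 10 of 242 genes (4.13%) in that direction. Without vehicle libraries 33, 34 and 35 neither passed (Upk3b 0.12, limma adjusted p = 0.0927; Gpm6a 0.07, adjusted p = 0.140). Of the 24 growth arrest genes Cdkn1a, an inhibitor of cyclin-dependent kinases, is listed for P. Its log2 difference was -0.62 (limma adjusted p = 0.334), with 39.43, 6.03 and 3.91 in vehicle libraries 34, 33 and 35 and at most 1.71 in every other library. Without those 3 libraries the difference of Cdkn1a was 0.46. The genes most like Fosb among 47 compared had rho of 0.35 to 0.44 (Wfdc17, Zmynd12, Tpt1-ps3 and Ctss), and these values were not tested.

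**Figure D4:**
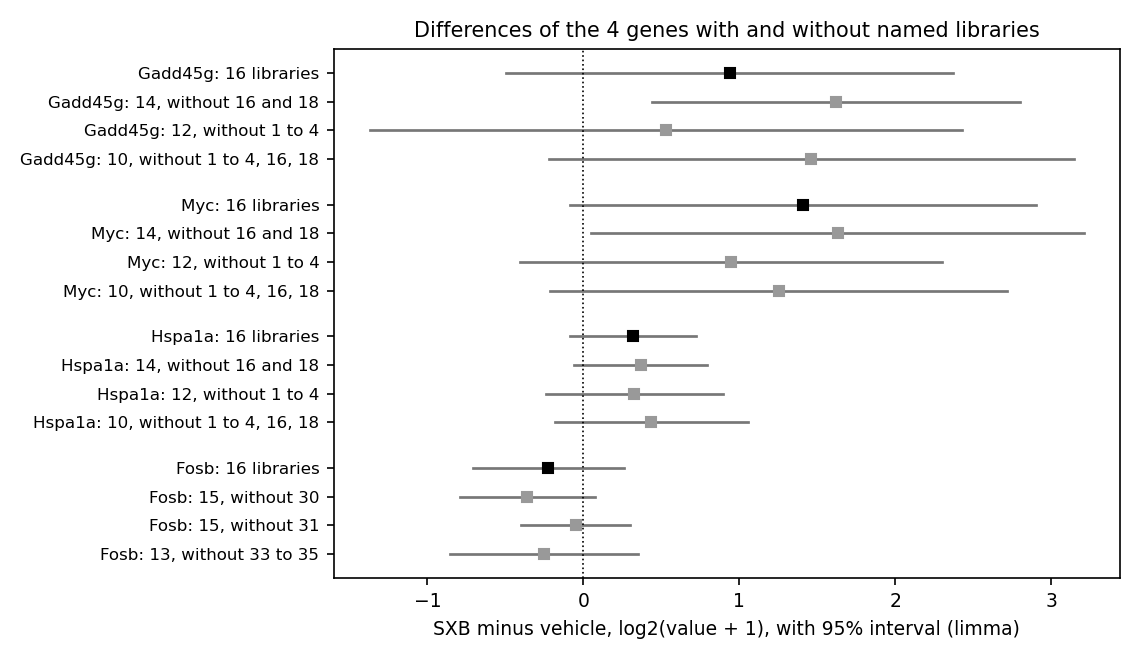
Difference of SXB minus vehicle on the log2(value + 1) scale (horizontal axis) with its 95% interval from limma, for each of the 4 genes with all 16 libraries of its experiment (black) and without the libraries named on the vertical axis (grey). Every estimate for Gadd45g, Myc and Hspa1a lies above 0 and every estimate for Fosb below 0, and the intervals that do not cross 0 are those of Gadd45g and Myc without libraries 16 and 18.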

How the data were processed

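Per the labels' protocols, RNA was isolated with TRIzol and read as paired ends of 150 bases on an Illumina HiSeq. Tools named in the submitters' processing notes are fastp, StringTie, HISAT2, RSEM and DESeq2, with the build GRCm38 and no versions or roles. Each library has a column of signal, an expression value normalised by the authors and deposited with a rounding of 0.01. From the values, the authors also deposited a linear fold (ratio), its log2 fold, a p-value and an adjusted p-value. The header of these columns is out of step with their content by 1 column, and that of T names P. Depth per library is unknown. Genes that the authors did not select were not used here.

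Groups follow the treatment label. Differences were tested in each table separately by limma (version 3.58.1, R 4.3.3), two-sided, on log2(value + 1). Benjamini-Hochberg adjustment covered all genes of the table, with a threshold of 0.05. A count model was not applied. Exact permutation and rank-sum tests used all 12870 assignments of 16 libraries, or 3432 of 14, and relations between genes used 100000 permutations within groups, in Python 3.11.15 with numpy 2.4.6 and scipy 1.17.1. The tests were tried on simulated data. No 2 libraries were duplicates (Spearman's rho of 0.45 to 0.86 in T and 0.52 to 0.87 in P). Identifiers matched GENCODE M21 for 305 of 306 genes of T and 242 of 242 of P. Named genes are the members, genes of the 12 lists, the 4 genes most alike to each member over all libraries, and mt-Atp6 and Orm2. Gm9830, E030018B13Rik and Capn8 are named outside this rule, after their values were seen. The members, lists and alternatives were chosen with earlier results of these data known. Alternatives were other pseudocounts (0.1, 0.01), a mean of at least 1, trended robust limma, the exact tests, and libraries left out or modelled.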

Additional observations from a re-analysis of the deposited data

Results flagged for a closer look

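In each gene and group of 8 libraries, the gap between an extreme library and the next was compared with the whole range of the group (Dixon's test), and 5 of 8 groups had a library that stood apart. The critical value would flag about 1 in 20 groups by chance if values were normal, which these right-skewed values are not. On the log2(value + 1) scale, added after the data were seen, the 2 groups of Fosb stood apart and the other 6 did not. Hspa1a had 2.37 in SXB library 13 and 1.12 in vehicle library 15, each the highest of its group. Gadd45g had 82.01 in vehicle library 16, while no other vehicle library exceeded 36.82. Fosb had 1.23 in SXB library 30 and 2.19 in vehicle library 31. No library of Myc met this criterion in either group.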

How the results depend on the processing

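The number of genes of T passing, 0 with all 16 libraries, was 2 with a pseudocount of 0.01, 56 without libraries 16 and 18, 50 with libraries 1 to 4 also as a term, 4 without libraries 1 to 4, 16 and 18, and, in the 14 libraries, 106 with a pseudocount of 0.1 and 61 by the exact permutation test. Leaving out 1 library gave 0 with all libraries as the start and, with the 14, between 3 (without SXB library 2) and 76 (without vehicle library 14). For P, with 94 genes passing, it was 26 of the 47 genes with a mean of at least 1 and 54 without vehicle libraries 33, 34 and 35. It was 110 and 130 with pseudocounts of 0.1 and 0.01, and 117 with trended robust limma. The exact permutation and rank-sum tests gave 113 and 104. With 1 library of P left out, it ran between 68 (without vehicle library 35) and 101 (without vehicle library 36). No member's difference changed sign. Gadd45g ran between 0.53 and 2.06 over 43 alternatives and passed in 3 of them, at 1.67 in the 14 libraries with a pseudocount of 0.1 (limma adjusted p = 0.0398) and without SXB library 12 or vehicle library 14. It ran between 0.69 and 1.35 with 1 of the 16 libraries left out, and between 1.37 and 2.06 with 1 of the 14 left out. Myc ran between 0.95 and 2.02 over 43 alternatives (adjusted p between 0.0579 and 0.558), Hspa1a between 0.18 and 0.90 over 42 (0.0790 to 0.605) and Fosb between -1.40 and -0.05 over 22 (0.0990 to 0.769), and none of these passed. Hspa1a and Fosb have means below 1 and gave no value with that filter. The cause of these changes was not tested. No paired analysis was possible because the labels give no pairing of libraries, and whether the design held one is not known. Of the listed genes, 71.9% in T and 80.6% in P have a mean below 1, which limits their precision.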

Other observations

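Of 20 genes of the integrated stress response, the program that ATF4 drives when amino acids run short or proteins misfold, 2 are listed for each experiment. In T, Asns, which encodes asparagine synthetase, averaged 2.21 ± 2.30 in SXB livers and 0.499 ± 0.338 in vehicle livers (SD, n = 8 each; log2 difference 0.86, limma adjusted p = 0.167). In P, Asns averaged 1.45 ± 1.11 in SXB livers and 4.29 ± 7.89 in vehicle livers (n = 8 each; -0.44, adjusted p = 0.415). The difference between the experiments was not tested. Gdf15, a stress-induced circulating factor, averaged 9.01 ± 12.8 in SXB livers and 19.9 ± 16.6 in vehicle livers of T (n = 8 each; -1.31, adjusted p = 0.194). Without libraries 16 and 18 Gdf15 fell to 4.73 ± 4.55 in SXB livers, against 21.95 ± 16.8 in vehicle livers (n = 7 each; -1.88, SE 0.59, adjusted p = 0.0428), the opposite sign to Gadd45g. Leaving out 1 more library ended that call in 11 of 14 cases (limma adjusted p up to 0.0852): vehicle library 4, 8, 10, 11 or 15, or SXB library 1, 2, 3, 9, 12 or 13. SXB library 18, which has the lowest Gadd45g of all, had 38.91 for Gdf15. Mthfd2, a mitochondrial folate enzyme listed for P, had a difference of -0.13 (adjusted p = 0.461).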
